A study of Mus musculus with 3 samples.

Results

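Small structured noncoding RNAs and ribosomal RNAs are described here through 5 genes, Rny1, Rny3, Bc1, Rn28s1 and mt-Rnr1, out of 30142 genes that a single symbol names on the array. They were chosen from these same arrays, for lying lower with SEMA3E and higher again once a blocking IgG was added, so their values below are a description of that pattern and not a test of it. All 9 probe sets annotated to these symbols were taken, and all 9 lay above the background floor. The cells were primary dorsal root ganglion neurons of male ICR mice, an outbred strain, aged 8 to 10 weeks, kept for 72 hours in 1 of 3 media. One culture received recombinant semaphorin 3E (SEMA3E, a secreted axon guidance protein) at 1 μg/ml plus a SEMA3E-blocking IgG at 1 μg/ml. A second received the same dose of SEMA3E without the IgG, and the last had control medium, which is DMEM with B27 and also the base of both others. Each medium has 1 array, so no difference below has an error or a test, and whether 1 animal or a pool gave the cells is not given in the sources used here.

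Y RNAs are short RNAs made by RNA polymerase III. They are bound by the proteins Ro60 and La (gene Ssb) and are known for roles in RNA quality control and in the start of DNA replication. Bc1, also a product of RNA polymerase III, is a rodent RNA of the neuronal cytoplasm that descends from a transfer RNA and represses translation, in part through the initiation factor eIF4A and the poly(A)-binding protein. Rn28s1 stands for the large-subunit rRNA of cytoplasmic ribosomes, which RNA polymerase I makes, and mt-Rnr1 for the small-subunit rRNA of mitochondrial ribosomes, which the mitochondrial RNA polymerase makes. The members therefore come from 3 different polymerases. None of these RNAs is translated. In RefSeq (GRCm38.p6) Rny3 and Rny1 both lie on chromosome 6, with annotated lengths of 101 and 111 bases, Bc1 on chromosome 7 with 154 bases, and mt-Rnr1 on the mitochondrial genome with 955 bases.

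The start of Bc1 is shown because its control region lies partly inside the RNA. The RefSeq window at chr7:144914220-144914519 (GRCm38.p6, plus strand) runs from 250 bases before the start of Bc1 to 50 bases after it, with the A box, the internal promoter element of transfer RNA genes, in capitals.
Bc1: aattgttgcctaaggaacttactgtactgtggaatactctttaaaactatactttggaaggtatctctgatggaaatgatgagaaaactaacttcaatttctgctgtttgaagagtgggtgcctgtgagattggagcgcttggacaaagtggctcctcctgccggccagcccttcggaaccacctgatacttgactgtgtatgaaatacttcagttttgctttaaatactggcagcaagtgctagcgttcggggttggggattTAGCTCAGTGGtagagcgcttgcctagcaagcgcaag
The A box consensus was matched once, on the sense strand, from base 14 to base 24 of the RNA and with no match on the other strand. Of 32851 promoter windows of this length, 7.07% hold the A box on either strand and 0.481% hold it on the sense strand after the start. The letters TATAAA, searched on both strands, are not in this window and are in 13.6% of all windows. These matches describe letters and not binding. Of the 5 members, 1 has a window in the table used here.

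The 3 arrays were close to each other over all probe sets. The floor was set from vomeronasal receptor genes, taken as not expressed here, at 5.51 on the log2(value + 1) scale (44.5 intensity units), and 33062 of 65956 probe sets lay at or above it. Of these, 66.3% held the same value in all 3 arrays. The values repeat between genes as well: 45.1% of these probe sets share all 3 values with at least 1 other probe set, so a shared value does not by itself show a shared probe. The signal summed over the whole array was 102% of control with SEMA3E plus IgG and 98.9% of control with SEMA3E alone.

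The first question was how these RNAs lay with SEMA3E relative to control medium. All 9 probe sets were lower with SEMA3E, by log2 differences between −0.10 and −0.31 with a median of −0.24. For comparison, 14% of all probe sets above the floor were lower, with a median of 0, and because the members were picked for this direction, nothing is read from that contrast. By at least 1.2-fold, 4 of the 9 were lower, against 1.53% of probe sets above the floor and 1.65% of those at least as bright as the dimmest member. 0 were higher by that much, against 1.89% above the floor.

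With both proteins present, the order of the media was the same for 8 of the 9 probe sets: SEMA3E plus IgG highest, control next and SEMA3E lowest. All 9 were higher with SEMA3E plus IgG than with SEMA3E alone, by 0.12 to 0.44 on the log2 scale with a median of 0.38, where 14.6% of probe sets above the floor were higher. By at least 1.2-fold, 6 of the 9 were higher, against 2.04% above the floor and 2.95% of those at least as bright as the dimmest member. 0 were lower by that much, against 1.37% above the floor. These contrasts share the SEMA3E array, and each of the 9 values below enters both.

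**Figure D1:**
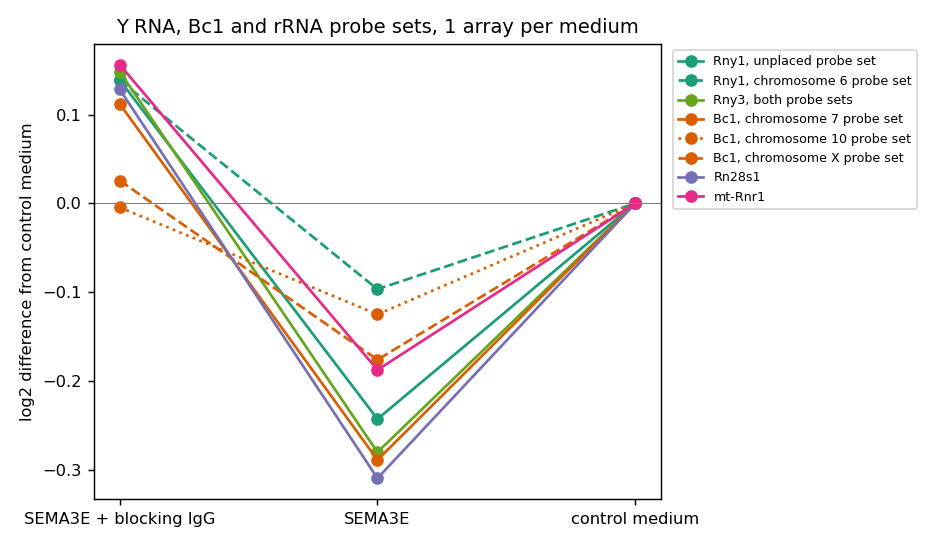
Log2 difference from control medium (vertical axis) in the 3 media (horizontal axis) for the 8 distinct sets of member values, 1 array per medium, with lines joining the points of a probe set. Every reading is lowest with SEMA3E, between −0.10 and −0.31, and lies between −0.0044 and 0.16 with SEMA3E plus blocking IgG.

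Among the Y RNA genes, Rny3 has 2 probe sets, TC0600000536.mm.1 and TSUnmapped00000180.mm.1, which held the same values as each other in every array. Whether they share probes is not shown by that, and their values are given once. Both read 5851 intensity units with SEMA3E plus IgG, 4347 with SEMA3E and 5279 in control medium. The SEMA3E array stood at 82.4% of control and the array with IgG at 111% of control. The log2 differences were −0.28 for SEMA3E against control and 0.43 for SEMA3E plus IgG against SEMA3E.

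Rny1, the other Y RNA gene, has 2 probe sets whose readings differ. The unplaced one, TSUnmapped00000181.mm.1, read 859.5 units with SEMA3E plus IgG, 659.5 with SEMA3E and 780.5 in control medium. The one placed on chromosome 6 by its ID, TC0600002211.mm.1, read 430.0 units with SEMA3E plus IgG, 365.1 with SEMA3E and 390.5 in control medium. SEMA3E was thus at 84.5% of control by the first and at 93.5% by the second, log2 differences of −0.24 and −0.10. The array with IgG was at 110.1% of control by both, a log2 difference of 0.14 each. The probe sets of Rny1 therefore part ways in the SEMA3E array and agree in the ratio of the other two.

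Bc1 was read by 3 probe sets with different IDs. TC0700002115.mm.1, whose ID names chromosome 7, where RefSeq places Bc1, read 49394 units with SEMA3E plus IgG, 37412 with SEMA3E and 45703 in control medium. TC0X00003300.mm.1 read 10804 units with SEMA3E plus IgG, 9394 with SEMA3E and 10613 in control medium. TC1000002475.mm.1 read 17683 units with SEMA3E plus IgG, 16266 with SEMA3E and 17737 in control medium. The IDs of these last probe sets name chromosomes X and 10, although the annotation gives them the same gene. Copies derived from Bc1 are spread through rodent genomes as repeats, and how far each probe set reads them was not tested.

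The chromosome 7 probe set was furthest apart and the chromosome 10 one least. SEMA3E against control gave −0.29 for the chromosome 7 probe set, −0.18 for the X one and −0.12 for the chromosome 10 one. SEMA3E plus IgG against SEMA3E gave 0.40 for the chromosome 7 probe set, 0.20 for the X one and 0.12 for the chromosome 10 one. Against control, the array with IgG was higher by 0.11 in the chromosome 7 probe set and by 0.03 in the X one, and lay at −0.0044 in the chromosome 10 one, the single member reading that was below control with IgG.

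Bc1 is a neuronal RNA, and in RNA from a mixed culture fewer neurons and less RNA per neuron cannot be told apart. All 12 neuron markers listed, among them Tubb3 and Snap25, lay above the floor. With SEMA3E 8 were lower than control, 4 identical and 0 higher, and their summed signal was 422509 units with SEMA3E against 428384 in control medium. That is −0.02 on the log2 scale, where the 3 Bc1 probe sets gave −0.12 to −0.29. Uchl1, identical in all 3 arrays at 205992 units, makes up much of each sum, and the median marker difference was −0.01. Single markers reached the lower end of the Bc1 values: Tubb3, the neuronal tubulin, gave −0.16 and Syp, a synaptic vesicle protein, −0.12. Both were identical between SEMA3E plus IgG and SEMA3E alone. With IgG the markers summed to 420414 units against 422509 with SEMA3E alone (−0.0072), with 2 higher (Map2, a dendritic microtubule protein, 0.09) and 2 lower (Stmn2, a growth cone protein, −0.07). Bc1 was 0.12 to 0.40 higher in the same comparison. For SEMA3E plus IgG against control, 9 markers were lower, 1 higher and 2 identical. The part of neuron number in the Bc1 values was not tested further.

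For ribosomal RNA, Rn28s1 (TSUnmapped00000097.mm.1) read 33980.0 units with SEMA3E plus IgG, 25086 with SEMA3E and 31087 in control medium. It held the largest differences among the members, −0.31 for SEMA3E against control and 0.44 for SEMA3E plus IgG against SEMA3E. The SEMA3E array was at 80.7% of control and the array with IgG at 109% of control. Ribosomal RNA genes are repeated in many near-identical copies, and a single probe set cannot tell them apart.

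mt-Rnr1 (TC0M00000002.mm.1) read 313538 units with SEMA3E plus IgG, 247072 with SEMA3E and 281349 in control medium. Its log2 differences were −0.19 for SEMA3E against control and 0.34 for SEMA3E plus IgG against SEMA3E. At 111% of control, its array with IgG gave the largest excess over control among the members, 0.16 on the log2 scale.

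The last comparison, SEMA3E plus IgG against control, asked how near to control the members lay with the antibody present. 8 of the 9 probe sets were higher than control and 1 was lower, with a median difference of 0.14 and a range from −0.0044 to 0.16, where 13.4% of probe sets above the floor were higher. By at least 1.2-fold 0 of the 9 were higher, against 1.79% of probe sets above the floor, and 0 were lower, against 1.19%. Among probe sets at least as bright as the dimmest member these shares were 2.32% and 1.41%. This comparison shares its arrays with both others, so its values follow from theirs. No medium held the blocking IgG without SEMA3E, so an effect of the IgG itself and blocking of SEMA3E cannot be told apart.

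By any amount, the pattern that the members were picked for was not rare on these arrays, while few probe sets had it at 1.2-fold. Of the 33062 probe sets above the floor, 2928 (8.86%) were lower with SEMA3E and higher with IgG by any amount, and 281 (0.85%) by at least 1.2-fold both times, among them 4 member probe sets: both of Rny3, the chromosome 7 one of Bc1, and Rn28s1. The opposite pattern, higher with SEMA3E and lower with IgG, held for 2497 (7.55%) and 261 (0.789%). Among the 10702 probe sets with a mean signal at least that of the dimmest member, 1630 (15.2%) had the members' pattern by any amount and 700 (6.54%) the opposite one. At 1.2-fold these counts were 100 (0.934%) and 64 (0.598%). The 281 probe sets hold 248 distinct sets of values, and 237 of the 281 have no symbol, 41 have 1 and 3 have several.

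**Figure D2:**
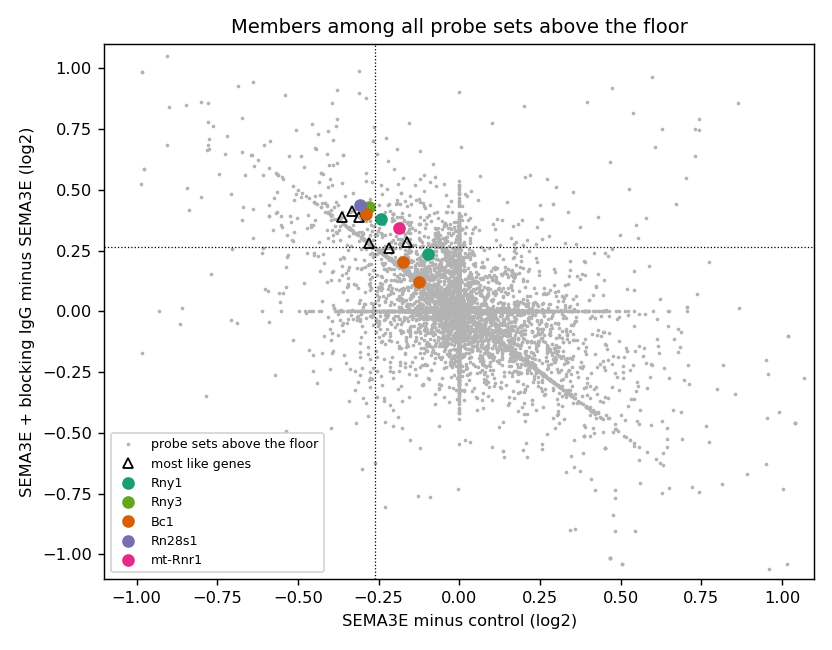
SEMA3E minus control (horizontal axis, log2) against SEMA3E plus blocking IgG minus SEMA3E (vertical axis, log2), with dotted lines at 1.2-fold. Shown are probe sets above the floor (grey), the members (coloured) and the 6 candidate genes most like them (triangles). All members lie at the upper left of the origin, both axes use the SEMA3E array, and 32 probe sets lie outside the axes, which end at 1.1.

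Probe sets with bright signals leaned the same way as the members, and this moved with brightness. Below a mean log2 signal of 7, 7.72% of probe sets were lower with SEMA3E and 12.4% higher. From 13 to 15, where 3 member probe sets lie, 33.8% were lower and 15% higher, and from 15 up, where 2 lie, 43.1% were lower and 12.2% higher. For SEMA3E plus IgG against SEMA3E, 47.8% of the brightest band were higher and 15.8% lower, against 9.23% and 11.9% in the dimmest band. Brighter probe sets also differed at all more often: 73.4% of the dimmest band and 31.1% of the brightest held identical values in all 3 arrays. The sizes were small, with a median difference of 0 in each band and both contrasts. The shares past 1.2-fold both times had no steady trend. From the dimmest band up they were 0.65%, 1.04%, 0.569%, 1.92%, 0.882% and 0.68%. The band at 1.92%, from 11 to 13, holds both Rny3 probe sets. The part of signal brightness in the members' values was not tested.

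**Figure D3:**
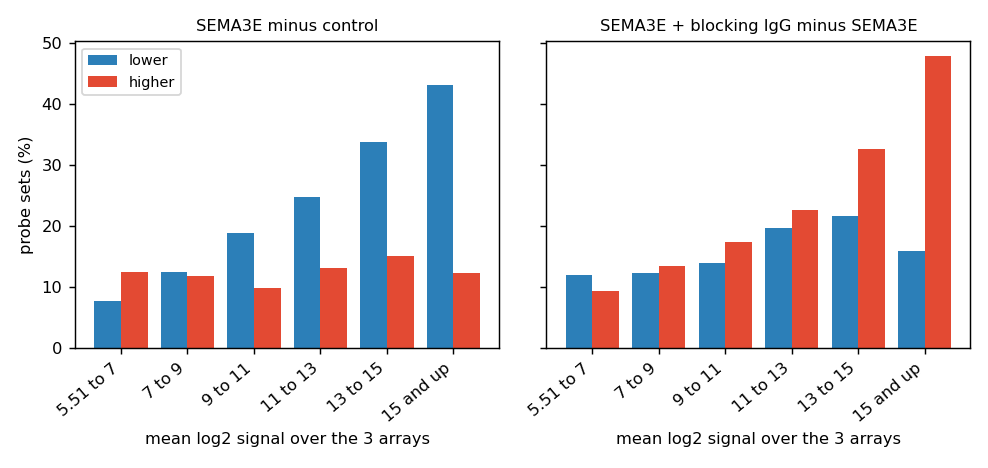
Percentage of probe sets lower (blue) and higher (red), by any amount, in bands of mean log2 signal over the 3 arrays, for SEMA3E against control (left) and SEMA3E plus blocking IgG against SEMA3E (right). In the brightest band 43.1% are lower with SEMA3E and 47.8% are higher with the IgG.

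Other structured noncoding RNAs had the directions of the members in part: 5 of the 9 measured above the floor were lower with SEMA3E and higher with IgG. Of 15 such genes listed, 10 had a probe set of their own and 9 lay above the floor: 6 were lower with SEMA3E, 3 identical and 0 higher, with a median of −0.02. With IgG 5 were higher than with SEMA3E alone and 1 lower, with a median of 0.04. Rn7sk, the polymerase III RNA that restrains transcription elongation, gave −0.07 and 0.08. Rn7s1 and Rn7s2, genes of the signal recognition particle RNA whose probe sets held the same values as each other, gave −0.02 and 0.12. Rpph1, the RNA of ribonuclease P, gave −0.04 and 0.04, and Rmrp, the RNA of ribonuclease MRP, was identical in all 3 arrays near the floor.

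Of these 9 genes, 0 passed 1.2-fold in both contrasts. Malat1, an abundant nuclear long noncoding RNA made by polymerase II, had the largest difference of the list in each of these contrasts taken singly, at 89124 units with SEMA3E plus IgG, 77129 with SEMA3E and 83438 in control medium (−0.11 and 0.21). The rodent polymerase III RNA gene Rn4.5s was the exception, at 16380 units with SEMA3E plus IgG, 18432 with SEMA3E and 19869 in control medium. It was lower with SEMA3E (−0.11) and lower again with IgG (−0.17). Whether the polymerase that makes an RNA goes with its values was not tested.

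By RefSeq gene kind, counted after the values were seen and without the members, 7 of 12359 protein-coding probe sets above the floor (0.0566%) passed 1.2-fold in both contrasts in the members' direction and 4 in the opposite one. Of 597 small nucleolar RNA probe sets 9 did (1.51%) and 12 ran the opposite way. Of 521 small nuclear RNA probe sets 1 did (0.192%) and 4 ran the opposite way, while 163 (31.3%) had the members' direction by any amount. Of 350 microRNA probe sets 7 did (2%) and 12 ran the opposite way, and of 2583 pseudogene probe sets 7 did (0.271%) and 5 ran the opposite way. Of 822 long noncoding RNA probe sets 1 did (0.122%) and 1 ran the opposite way. Of all 10702 probe sets with a signal at least that of the dimmest member, 0.934% passed and 0.598% ran the opposite way. At this brightness 4 of 79 small nucleolar RNA probe sets passed (5.06%) and 1 ran the opposite way. MicroRNAs had 1 and 1 of 74, and small nuclear RNAs 1 and 1 of 204. Protein-coding genes had 6 and 0 of 5130, pseudogenes 3 and 0 of 1304, and long noncoding RNAs 0 and 0 of 45. Of the 204 small nuclear RNA probe sets, 113 (55.4%) had the members' direction by any amount. The 204 hold 131 distinct sets of values, with medians of −0.02 with SEMA3E and 0.18 with IgG.

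The other transcripts of the mitochondrial genome did not share 1 pattern with mt-Rnr1. The 30 probe sets whose IDs carry the prefix of mt-Rnr1 and of all named mitochondrial genes all lay above the floor. Of the 29 without mt-Rnr1, 16 were lower with SEMA3E, 12 identical and 1 higher, and with IgG 15 were higher, 11 identical and 3 lower. 14 had both directions of mt-Rnr1, and 3 had them by at least 1.2-fold. Their medians were −0.01 and 0.0064. The furthest apart was TC0M00000014.mm.1, which has no symbol, at 12672 units with SEMA3E plus IgG, 6843 with SEMA3E and 9961 in control medium (−0.54 and 0.89).

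Of 13 mitochondrially encoded mRNAs, 5 have a probe set of their own. ND2, a subunit of respiratory complex I encoded downstream of the rRNA genes, was at 8313 units with SEMA3E plus IgG, 6358 with SEMA3E and 7890 in control medium (−0.31 and 0.39). COX1, the catalytic subunit of cytochrome oxidase, lay the same way with smaller differences (−0.08 and 0.10). ND3, another complex I subunit, was at 13154 units with SEMA3E plus IgG, 14451 with SEMA3E and 16972 in control medium, lower both times (−0.23 and −0.14). COX2 and ND6 were identical in all 3 arrays. The median of these 5 was −0.08 with SEMA3E and 0 with IgG.

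**Figure D4:**
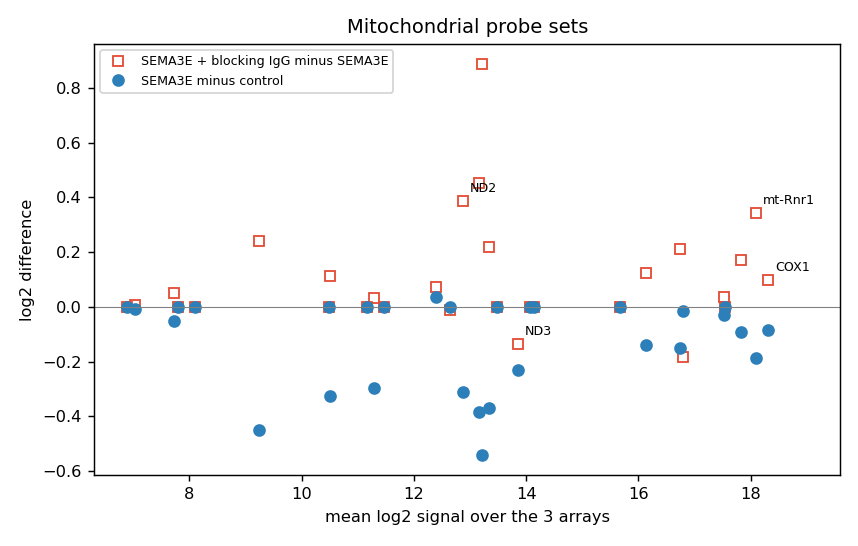
Log2 differences (vertical axis) of the 30 mitochondrial probe sets against their mean log2 signal over the 3 arrays (horizontal axis), for SEMA3E plus blocking IgG minus SEMA3E (open squares) and SEMA3E minus control (filled circles), 1 array per medium. Some probe sets, such as ND2 and mt-Rnr1, are lower with SEMA3E and higher with the IgG, while ND3 is lower both times and others lie at 0.

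Most genes whose proteins make, bind or process these RNAs held the same value in all 3 arrays. With the normalization unknown, an identical value may not be a measured lack of change. The list of Y RNA binding proteins had 8 genes, and all 8 probe sets read for it lay above the floor. For Igf2bp1, a lookup by older names led to the probe set of B4galnt2, so Igf2bp1 itself was not read. All 8 readings were identical between SEMA3E and control, including Ro60 at 362.2 units and Ssb at 9832 units in all 3 arrays. With IgG 1 was higher, Ncl (nucleolin, 0.02), and 7 were identical, B4galnt2 among them. Of 8 partner proteins of Bc1, 7 were measured above the floor. Eif4b, an initiation factor that aids eIF4A, was lower with SEMA3E (−0.06) and higher with IgG (0.06), and the other 6, among them Eif4a1, Pabpc1 and Fmr1, were identical in all 3 arrays.

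RNA polymerase III and its factors had 29 of 30 genes measured above the floor. With SEMA3E 26 were identical, 2 lower and 1 higher, and with IgG 26 were identical, 3 lower and 0 higher. Gtf3c6, a subunit of the factor that binds internal promoters, was 0.06 higher with SEMA3E and −0.15 with IgG. Polr1c, a subunit shared by polymerases I and III, gave −0.03 and −0.21, and −0.24 for SEMA3E plus IgG against control. Maf1, the repressor of polymerase III, was identical at 450.9 units. Of 11 polymerase I genes measured, 1 was lower with SEMA3E (Polr1c) and 10 were identical, and with IgG 3 were lower (Polr1c and Taf1b, a subunit of its selectivity factor, −0.08) and 8 identical.

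Of 23 rRNA maturation genes above the floor, 21 were identical between SEMA3E and control. Dkc1, the pseudouridine synthase, was higher (0.10), and Pes1, which acts in large-subunit assembly, was lower (−0.04). With IgG 2 were higher (Pes1 0.04) and 1 lower (Utp3, of small-subunit processing, −0.03). Of 20 genes of mitochondrial transcription and rRNA handling, 18 were identical with SEMA3E and 2 higher (Fastkd2 0.02 and Mterf2 0.02). With IgG 5 were lower and 0 higher, led by Slirp, an RNA-binding partner of Lrpprc (−0.13), and Hsd17b10, a subunit of mitochondrial ribonuclease P (−0.12). The median of each of these 6 protein lists was 0 in both contrasts, as over all probe sets above the floor.

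**Figure D5:**
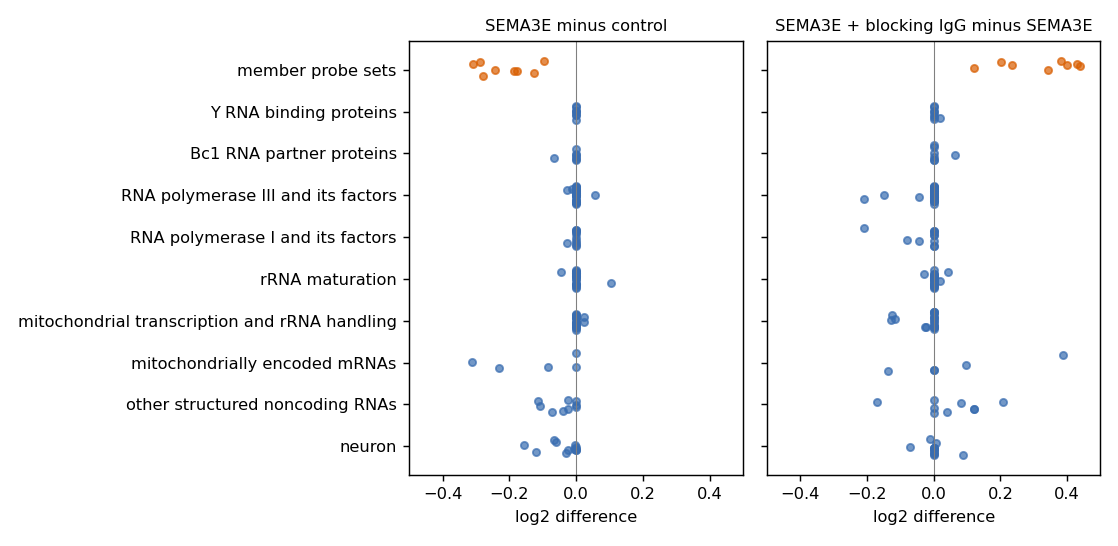
Log2 differences for SEMA3E minus control (left) and SEMA3E plus blocking IgG minus SEMA3E (right), 1 point per gene above the floor, with the 8 distinct sets of member values in the top row and small vertical scatter added for sight. The members lie at −0.10 to −0.31 and at 0.12 to 0.44, while most genes of the protein lists lie at 0.

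The 6 genes whose pair of differences lay nearest to the members' medians, among 12648 candidate probe sets, were ND2 (distance 0.07 on the log2 scale), Hmgn5 (0.09), Lamc1 (0.11), Hist1h2aj (0.12), Tmem130 (0.12) and DQ267102 (0.13). Candidates were probe sets with 1 symbol at or above the floor. Symbols of the forms Gm, Rik, Mir, n-R, Snor, Scar, Rnu and LOC were left out. Many microRNA, small nucleolar and small nuclear RNA genes could therefore not be named here, nor could probe sets without a symbol. Likeness here rests on 3 arrays. Hmgn5, a nucleosome-binding protein gene, read 145.4 units with SEMA3E plus IgG, 108.9 with SEMA3E and 137.3 in control medium. Lamc1, a laminin chain gene, read 1397.5 units both with SEMA3E plus IgG and in control medium, and 1151 with SEMA3E. Hist1h2aj, a replication-dependent histone gene from a family of near-identical copies, read 142116 units with SEMA3E plus IgG, 108643 with SEMA3E and 139706 in control medium. DQ267102 is a small nucleolar RNA gene in RefSeq (−0.16 and 0.29), and Tmem130 encodes a membrane protein (−0.22 and 0.26).

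Markers of the other cells that such cultures hold went both ways. Satellite glial markers (5 of 7 above the floor) summed to 11588 units with SEMA3E plus IgG, 12015 with SEMA3E and 12141 in control medium, with Kcnj10, their potassium channel, lower both times (−0.24 and −0.30), Fbln5 lower (−0.28 and −0.02), and Fabp7, a fatty acid carrier, higher and then lower (0.13 and −0.13). Macrophage markers (5 of 8) summed to 3970 units with SEMA3E plus IgG, 4053 with SEMA3E and 3800 in control medium, led by Lyz2, the macrophage lysozyme (0.19 and −0.08), with Cd68 at −0.08 and 0.08, while Csf1r and C1qb lay below the floor. Schwann cell markers (4 of 8) summed to 137280 units with SEMA3E plus IgG, 137532 with SEMA3E and 137803 in control medium, with S100b, a calcium-binding protein, at −0.06 both times. Fibroblast markers (5 of 6) summed to 11399 units both with SEMA3E plus IgG and with SEMA3E, and 11403 in control medium, with 1 gene lower with SEMA3E (Lum, a matrix proteoglycan, −0.01). Endothelial and mural markers (6 of 6) summed to 14240 units with SEMA3E plus IgG, 14248 with SEMA3E and 13423 in control medium, with 1 gene higher with SEMA3E (Tagln, of smooth muscle, 0.23). The 1 red blood cell marker measured lay below the floor. None of these lists had the members' order of media in its sums. Some sums rest mostly on 1 gene identical in all 3 arrays: Pmp22 (130696 units) for Schwann cells and Dcn (8988 units) for fibroblasts. The part of these cells in the members' values was not tested further.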

How the data were processed

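RNA was extracted with TRIzol and a column kit and amplified and labelled with the GeneChip WT Pico kit, per the labels' protocols. The deposited intensity values come from the authors, and per the submitters' processing notes the tool was Affymetrix Expression Console. Its version, its normalization and the genome build are not given here. Values are linear and were used as log2(value + 1), and every difference is between 2 arrays. With 1 array per medium, the number of arrays limits the precision.

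Probe sets were named by the platform annotation: 30604 of 65956 have 1 symbol, 2146 several and 33206 none, and 827 symbols were updated through gene numbers with RefSeq (GRCm38.p6). As the floor, the percentile 95 of the log2 means was taken over 493 probe sets of vomeronasal receptors. In the lists a gene is read by its probe set with the highest mean, and the mitochondrial mRNAs under the array's short names.

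The members and lists were chosen with earlier results of these data known. Besides the members, the genes named are the 6 candidates nearest to the members' median pair of differences. In each list, the 2 with the largest difference in each contrast are named, leaving out identical values. Genes named beyond that rule (Ro60, Ssb, Maf1, COX1, COX2, ND6, Rn7sk, Rn7s1, Rn7s2, Rpph1, Rmrp, TC0M00000014.mm.1, Eif4a1, Pabpc1, Fmr1, Snap25, Csf1r and C1qb) were added after their values were seen. Igf2bp1, B4galnt2, Uchl1, Pmp22 and Dcn were also named after their values were seen. Kinds of gene are RefSeq's. The A box was searched by its usual consensus on both strands. Calculations were checked on values with known shifts. Python 3.11.15, numpy 2.4.6, pandas 2.3.3, statsmodels 0.14.6 and matplotlib 3.10.9 were used.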

Additional observations from a re-analysis of the deposited data

How the results depend on the processing

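The direction of each member reading in each contrast was the same under median centring, quantile normalization, loess and a pseudocount of 16. Of 108 such values 75 were unchanged to 2 decimals, 33 moved and 0 changed sign. With 66.3% of probe sets above the floor identical in all 3 arrays, these settings could move little. Centring shifted the 3 contrasts by −0.00027, −0.0047 and −0.0049, and loess left the members' medians unchanged. The kept signs therefore say little about how stable the values are. The medians over the 9 probe sets moved little. For SEMA3E against control the median was −0.25 under quantile normalization, −0.28 with the brightest probe set of each gene, −0.20 with the mean over a gene's probe sets and −0.22 with probe sets of the same values counted once, an alternative chosen after seeing the data. For SEMA3E plus IgG against SEMA3E it was 0.38 as reported and 0.377 after centring, 0.371 after quantile normalization, 0.374 with a pseudocount of 16, 0.40 with the brightest probe sets, 0.34 with the mean over probe sets and 0.36 with same values counted once. For SEMA3E plus IgG against control it was 0.13 after centring, with a pseudocount of 16 and with same values counted once, and 0.11 after quantile normalization. The count of 281 probe sets in the members' direction became 740 at 1.1-fold, 35 at 1.5-fold and 41 among probe sets with 1 symbol, by the construction of these settings, and lay between 245 and 304 under the others. No paired analysis was possible because each medium has 1 array, and for the same reason no replicate could be left out. Signals near the floor limit the dim genes of the lists, not the members.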
